A study of Mus musculus with 6 samples.

Results

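Signalling by bone morphogenetic proteins (BMPs) is limited outside the cell and at its surface, and 10 genes of that layer were followed in 6 mouse neurosphere cultures. They were listed by name out of 17551 genes in the count table, with earlier results of these data known. The list holds 5 secreted antagonists (Nog, Chrd, Chrdl1, Grem1 and Fst), 2 secreted modulators (Twsg1 and Bmper), the pseudoreceptor Bambi and 2 co-receptors (Rgma and Rgmb). Total RNA was sequenced from 3 G328V cultures, with the genotype label ACVR1 G328V, and 3 WT cultures, with the label ACVR1 WT, all on a C57BL/6 background. Neurospheres are cell clusters that grow in suspension from neural stem and progenitor cells, and these were kept with EGF and FGF in medium with N2 and B27. G328V replaces a glycine of ACVR1, one of the type I receptors of the BMP family, by valine. The series also calls the G328V cultures NPAC and the WT cultures NP. The sources used here do not spell out those letters, so any further allele that the groups share is not named, nor are the age of the animals and whether cultures were pooled or came from 1 clone.

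BMP ligands bind pairs of type I and type II receptors, which phosphorylate SMAD1, SMAD5 and SMAD9. Noggin, chordin, chordin-like 1 and gremlin bind BMPs and keep them from their receptors, while follistatin binds activins above all. The SMADs also switch on several genes that dampen the pathway, Nog and Bambi among them, so these genes are known as negative feedback. In the nervous system BMP antagonists help to set the balance between neuronal and glial fates of neural stem cells.

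A G328V library held 115953495 to 182626231 counts, and a WT library 120457925 to 191115532. Values by library are given in the order of replicates 1, 2 and 3 for G328V and 1, 3 and 70A for WT, and log2 differences are G328V minus WT. Acvr1 was at 244, 250 and 650 counts-per-million (CPM, levels scaled by library size) in the G328V libraries, against 42.4, 100.0 and 90.7 CPM in the WT libraries, so no WT library was above a G328V library. Each of 8 neural stem and progenitor markers had counts in every library, but not at even levels. Nes lay between 105 and 273 CPM in the G328V libraries and between 91.2 and 963 CPM in the WT libraries, and Sox2 between 145 and 237 CPM and between 134 and 179 CPM. Vim lay between 1718 and 3189 CPM over all libraries. Fabp7 reached 1313 CPM in WT replicate 1, against 0.574 CPM or less in the remaining WT libraries. Msi1 ran from 0.716 to 40.6 CPM among the WT libraries. Prom1 ran from 133 to 288 CPM in G328V and from 7.92 to 68.8 CPM in WT, without overlap. Sox9 was separated in the other direction, from 33.2 to 80.1 CPM in G328V and from 109 to 151 CPM in WT. Xist, the RNA of the inactive X chromosome, had 76093 to 128424 counts in G328V and 44 to 206 in WT, and the Y-linked Ddx3y had 0 to 6 counts in G328V and 3119 to 7122 in WT. By these 2 genes the G328V libraries had a female pattern and the WT libraries a male one. No difference below, on any chromosome, can be told apart from a difference between the sexes. WT replicate 1 stood apart, with Olig2, a factor of the oligodendrocyte lineage, at 416 CPM, against at most 0.938 CPM in the other 5 libraries. In bulk RNA, fewer cells of a type and less RNA per cell cannot be told apart.

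Nog and Bambi were higher in every G328V library than in every WT library, and the libraries of the groups overlapped for the other 8 genes. Of all 14643 genes tested, 5.25% had groups that did not overlap with G328V higher, and 4.45% with G328V lower. All 10 genes passed the filter on low counts, 8 had positive log2 differences and 2 had negative ones, and over all genes 49.7% were positive. Without G328V replicate 2 only 5 were positive, and with the replicate number as a block 6 were. Their median log2 difference was 0.91, beside 0.00 over all genes tested, and it was 0.34 without G328V replicate 1. None of the 10 passed edgeR's quasi-likelihood test at a false discovery rate of 0.05, where 0% of genes did. Nog and Bambi had an unadjusted p under 0.05, as did 4.06% of all genes. DESeq2, run as an alternative, called 1 of the 10, Bambi, and 1.05% of 16521 genes. The labels do not name the animals or cultures behind the replicates, so these p-values measure the spread between these libraries.

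**Figure D1:**
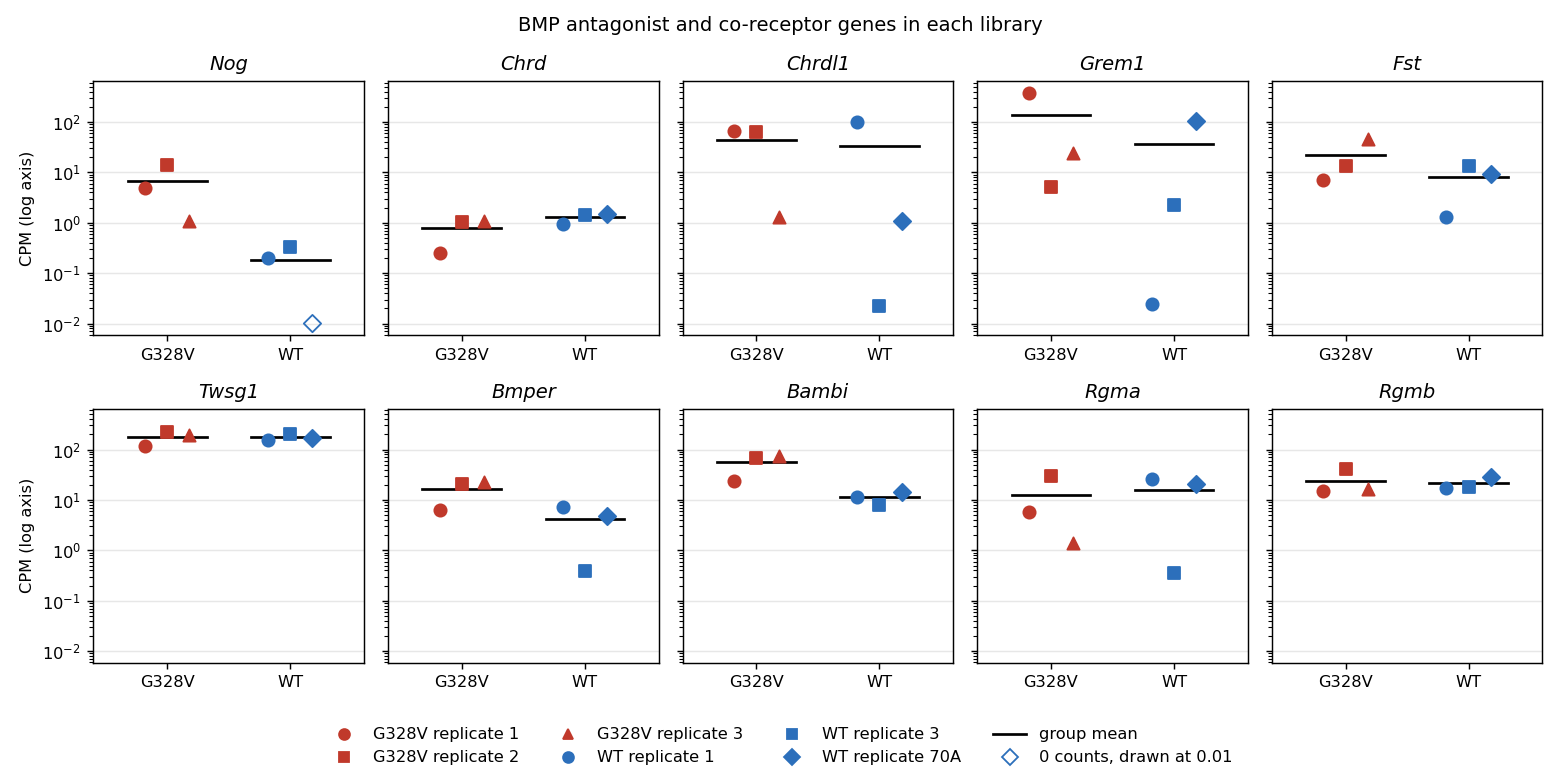
Each panel shows 1 gene, with its level in CPM (log axis) in the 3 G328V libraries on the left and the 3 WT libraries on the right, and black lines for the group means. Nog and Bambi have every G328V library above every WT library, while Chrdl1 and Grem1 spread widely within each genotype.

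Noggin is a secreted protein that wraps around BMP dimers and covers their receptor-binding surfaces. Nog is a gene of 1 exon on chromosome 11, minus strand, from base 89300638 to base 89302332 of GRCm38. It was at 4.97, 13.9 and 1.10 CPM in the G328V libraries, against 0.203, 0.335 and 0 CPM in the WT libraries. G328V replicate 3 was the lowest of its group and still above each WT library. The counts behind these levels were 853, 1668 and 203 in G328V and 25, 59 and 0 in WT. In WT replicate 70A, 3 counts would equal 0.0172 CPM. Nog had a mean of 6.64 ± 6.54 CPM in G328V, against 0.179 ± 0.169 CPM in WT (SD, n = 3 each), a ratio of means of 37.0. The log2 difference was 5.20 ± 2.00 (SE), which did not pass edgeR's test (unadjusted p = 0.0391, adjusted p = 0.997). DESeq2 gave an adjusted p of 0.0707, and over 16 alternatives the adjusted p ranged from 0.0707 to 1.00. Astrocyte markers, all 5 of which are in the table, summed to 206, 1671 and 55.1 CPM in the G328V libraries, against 40.4, 115 and 33.4 CPM in the WT libraries, which is the order of Nog within each genotype. The sum was mostly Sparcl1 in G328V replicate 2, at 1666 CPM, and mostly Aldh1l1 in WT replicate 3, at 104 CPM, and no single marker had the order of Nog in both genotypes. Their part in the Nog difference was not tested. Gfap, which defines astrocytes, was at 10.1 CPM in G328V replicate 1, at most 0.299 CPM elsewhere and at 0 in WT replicates 3 and 70A.

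Bambi encodes a membrane protein that resembles a type I receptor but has no kinase domain, so it takes a place in the receptor complex without signalling. It lies on chromosome 18, plus strand, from base 3507923 to base 3516404 of GRCm38. Its level was 23.8, 69.4 and 73.6 CPM in the G328V libraries, against 11.3, 8.09 and 14.2 CPM in the WT libraries. The lowest G328V library thus lay above the highest WT library, and replicates 2 and 3 of G328V lay close together. Bambi had a mean of 55.6 ± 27.6 CPM in G328V, against 11.2 ± 3.08 CPM in WT (SD, n = 3 each), a ratio of means of 4.97. The log2 difference was 2.31 ± 0.51 (SE), which did not pass edgeR's test (unadjusted p = 0.00377, adjusted p = 0.997). It did pass in DESeq2, with a log2 difference of 2.29 and an adjusted p of 0.0123, the lowest of 16 alternatives, the highest being 1.00. Leaving out each library in turn gave log2 differences from 2.06 to 2.68. The Cufflinks estimated counts gave 2.32.

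Other genes followed the profile of Bambi over the 6 libraries more closely than any further member did. Among 11561 genes with at least 1 CPM on average, the nearest by root mean square distance of centred log2 CPM were Cercam at 0.47, Art5 and Slco5a1 at 0.49 each, Bend7 at 0.53 and Pde1b at 0.55. Slco5a1, a member of a transporter family, was at 30.1, 54.1 and 45.1 CPM in the G328V libraries, against 19.5, 6.74 and 15.0 CPM in the WT libraries. Pde1b, a phosphodiesterase of cyclic nucleotides, was at 25.0, 44.7 and 81.2 CPM in the G328V libraries, against 16.6, 10.8 and 7.31 CPM in the WT libraries. In all 5 genes each G328V library was above each WT library, which the choice by likeness to Bambi makes likely.

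**Figure D2:**
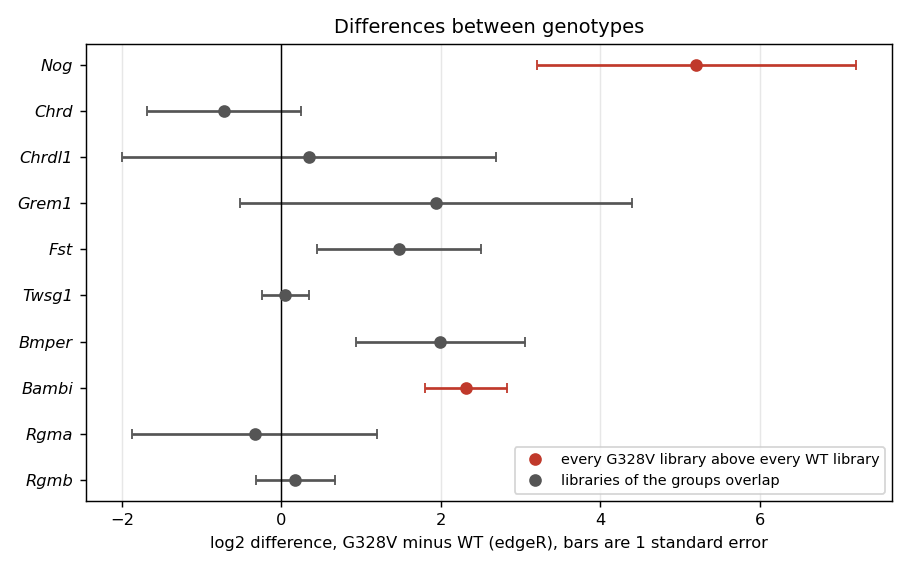
Points are edgeR log2 differences, G328V minus WT, over 3 libraries per group, bars are 1 standard error, and red marks genes whose groups did not overlap. Bambi at 2.31 has a narrow bar and Nog at 5.20 a wide one, while Twsg1 at 0.05 and Rgmb at 0.17 lie near 0.

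Chordin holds BMPs in a complex until a protease of the tolloid family cleaves it. Chrd was the lowest of the 10 per kilobase of exon in G328V. Its level was 0.256, 1.02 and 1.08 CPM in the G328V libraries, against 0.951, 1.44 and 1.49 CPM in the WT libraries. WT replicate 1 lay among the G328V libraries, so the groups overlapped, and G328V replicate 1 was the lowest of all. The log2 difference of -0.72 had a standard error of 0.97 and did not pass edgeR's test (adjusted p = 0.997). The gene shares 239 bases of exon with Thpo on the opposite strand. The sources used here do not say whether the counting used strand, and Thpo was at most 0.163 CPM in any library. The genes nearest to Chrd in profile were Msh5 at a distance of 0.19, Phf15 at 0.25, Armcx1 at 0.26, and Tax1bp3 and Plekhb2 at 0.27 each. Each of these was also lowest in G328V replicate 1, as Chrd was, which the choice by likeness to Chrd makes likely.

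Chordin-like 1, a chordin relative that astrocytes are known to secrete, set libraries apart within each genotype. Chrdl1 was at 65.1, 62.5 and 1.29 CPM in the G328V libraries, against 100 CPM in WT replicate 1, 0.0227 CPM in WT replicate 3 and 1.10 CPM in WT replicate 70A. The high libraries thus came from both genotypes, and WT replicate 3 had only 4 counts. The log2 difference was 0.35 ± 2.34 (SE) (edgeR adjusted p = 0.997). It was 6.23 without WT replicate 1, and below 0 when G328V replicate 1 or 2 or WT replicate 3 or 70A was left out. Oligodendrocyte precursor markers, 5 of 5 in the table, summed to 231, 201 and 13.6 CPM in G328V and to 1044, 50.0 and 105 CPM in WT, and were also highest in the 3 libraries where Chrdl1 was high. Different genes made up that sum, with Olig1 and Olig2 at 615 and 416 CPM in WT replicate 1, where Pdgfra was at 9.65 CPM, and Pdgfra at 102 and 158 CPM in G328V replicates 1 and 2, where Olig1 was at 1.07 and 0.390 CPM. Their part was not tested, and Sox10, a defining marker, was at 0 in G328V replicates 2 and 3. Chrdl1 lies on the X chromosome, from base 143285674 to base 143394262 of GRCm38.

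Gremlin 1 belongs to the DAN family of BMP antagonists. Grem1 had the widest spread of the 10 genes, wider than all but 0.0546% of the genes tested. It was at 382, 5.23 and 24.2 CPM in the G328V libraries, against 0.0244, 2.30 and 105 CPM in the WT libraries. Only WT replicate 70A broke the separation, and without it each G328V library lay above the WT libraries left. Of all genes tested, 9.68% were separated in that direction without WT replicate 70A. WT replicate 1 had 3 counts, and G328V replicate 1 had 65516. The log2 difference was 1.93 ± 2.46 (SE) (edgeR adjusted p = 0.997), and it was -1.29 without G328V replicate 1 and 6.88 without WT replicate 70A. Fibroblast and pericyte markers, 6 of 6 in the table, summed to 53.8, 105 and 1.11 CPM in G328V and to 6.10, 19.9 and 504 CPM in WT. They were highest in WT replicate 70A, at 455 CPM for Col3a1 alone, where Grem1 was the highest of its group, but in G328V they were highest in replicate 2, where Grem1 was the lowest. Their part was not tested, and Lum was at 0 in all 3 G328V libraries.

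Follistatin neutralises activins and, more weakly, some BMPs. Fst was at 7.05, 13.5 and 45.6 CPM in the G328V libraries, against 1.29, 13.4 and 9.12 CPM in the WT libraries. The groups overlapped, since G328V replicate 1 lay below WT replicates 3 and 70A. The log2 difference of 1.47 (standard error 1.02, edgeR adjusted p = 0.997) was 0.37 without G328V replicate 3, and 0.96 without WT replicate 1. Inhba, the activin subunit gene whose product follistatin binds, was at 2.69, 1.21 and 1.44 CPM in the G328V libraries, against 0.699, 54.7 and 29.0 CPM in the WT libraries. Inhba had a log2 difference of -3.98 ± 1.39 (SE) and an unadjusted p of 0.0276 (edgeR adjusted p = 0.997), and WT replicate 1 lay below every G328V library.

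Twisted gastrulation and BMPER (a relative of the fly protein crossveinless 2) bind BMPs and chordin and can either dampen or promote signalling. Twsg1 was the most even of the 10 genes, at 120, 224 and 196 CPM in the G328V libraries, against 153, 199 and 170 CPM in the WT libraries. Its log2 difference was 0.05 ± 0.30 (SE) (edgeR adjusted p = 0.997), and 81.2% of the genes tested had a wider range of log2 CPM over the libraries. Bmper was at 6.34, 20.3 and 22.3 CPM in the G328V libraries, against 7.13, 0.381 and 4.77 CPM in the WT libraries. The groups overlapped by 1 library, G328V replicate 1, which lay just below WT replicate 1. Bmper had a mean of 16.3 ± 8.69 CPM in G328V, against 4.09 ± 3.43 CPM in WT (SD, n = 3 each), and its log2 difference was 1.99 ± 1.07 (SE) (edgeR adjusted p = 0.997).

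The co-receptors RGMA and RGMB are anchored to the membrane by a lipid, bind BMPs and the receptor neogenin, and are known for roles in axon guidance. Rgma was at 5.65, 30.2 and 1.43 CPM in the G328V libraries, against 26.2, 0.358 and 20.5 CPM in the WT libraries. Each genotype thus held libraries with high and with low Rgma. Rgmb was at 15.3, 41.2 and 16.2 CPM in the G328V libraries, against 17.2, 18.2 and 29.1 CPM in the WT libraries, so that only G328V replicate 2 and WT replicate 70A lay above the rest. The log2 differences were -0.33 for Rgma and 0.17 for Rgmb, with standard errors of 1.54 and 0.50, and neither passed edgeR's test (adjusted p = 0.997 for each). Per kilobase of exon, the level of Rgma was 0.511, 1.02 and 0.122 of that of Rgmb in the G328V libraries, and 2.11, 0.0272 and 0.975 of it in the WT libraries. Neo1, the gene of neogenin, lay between 603 and 763 CPM in the G328V libraries and between 287 and 780 CPM in the WT libraries, and its log2 difference was 0.20 ± 0.40 (SE) (edgeR adjusted p = 0.997).

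**Figure D3:**
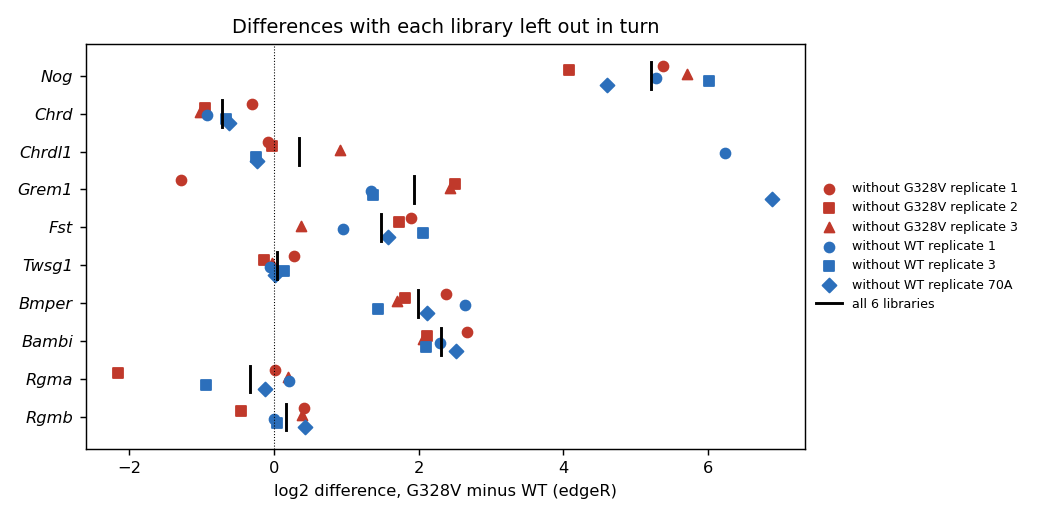
Coloured points are edgeR log2 differences, G328V minus WT, with 1 library left out at a time, and black bars are the values with all 6. The points of Bambi stay between 2.06 and 2.68 and those of Nog between 4.07 and 6.02, while those of Chrdl1 run from -0.25 to 6.23 and those of Grem1 from -1.29 to 6.88.

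The 7 secreted members were compared with each other in each library as CPM per kilobase of exon. Twsg1 took the largest share of their summed level in 5 libraries, at 62.6% in G328V replicate 2, 64.0% in G328V replicate 3, and 63.7%, 90.7% and 53.4% in the WT libraries. In G328V replicate 1 Grem1 took 70.4% and Twsg1 17.8%. After Twsg1, the leading gene of the other libraries was Chrdl1 in G328V replicate 2 and WT replicate 1, Fst in G328V replicate 3 and WT replicate 3, and Grem1 in WT replicate 70A. Each of these 3 genes therefore led in a library of each genotype. Nog took 2.24%, 11.8% and 1.10% in G328V, against 0.258%, 0.464% and 0% in WT. The summed level without Twsg1 was 108, 26.0 and 21.4 in G328V and 16.9, 3.97 and 28.8 in WT, so the groups overlapped through WT replicate 70A.

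**Figure D4:**
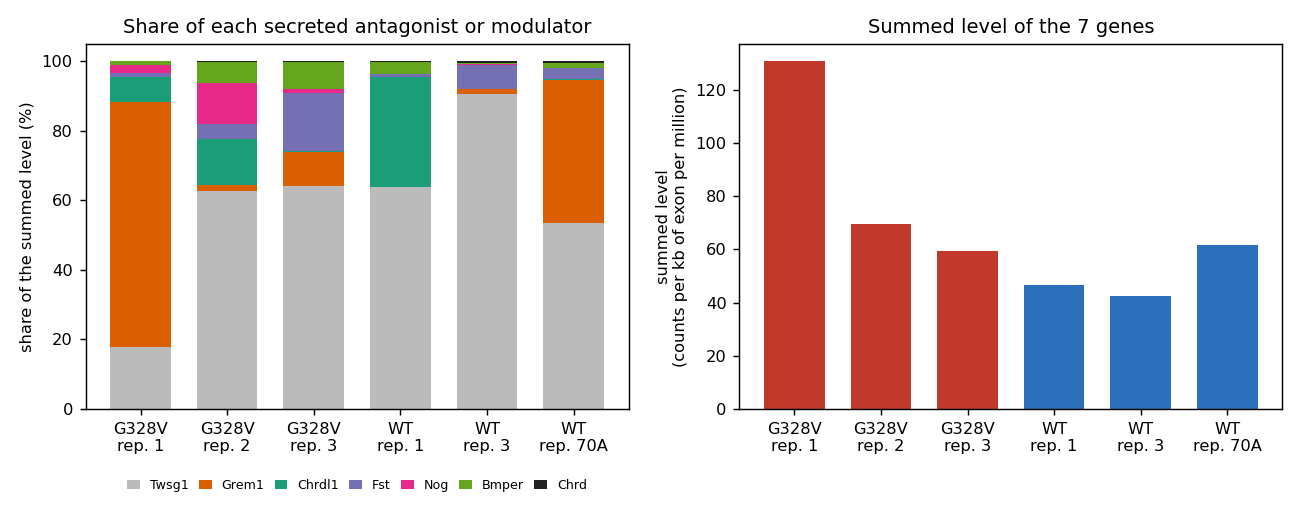
The left panel shows the share (%) of each of the 7 secreted genes in their summed level per kilobase of exon, and the right panel that summed level, for each of the 3 G328V and 3 WT libraries. Twsg1 leads except in G328V replicate 1, where Grem1 holds 70.4%, and the second gene changes from library to library within each genotype.

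Over all 10 genes per kilobase of exon, Twsg1 had the highest mean in each genotype, at 35.0 ± 10.5 in G328V and 33.8 ± 4.57 in WT (SD, n = 3 each). In G328V it was followed by Grem1 at 33.0 ± 51.2, Bambi at 11.0 ± 5.44, Chrdl1 at 6.36 ± 5.34, Fst at 4.80 ± 4.50, Nog at 3.92 ± 3.86, Bmper at 3.38 ± 1.80, Rgmb at 3.16 ± 1.92, Rgma at 2.24 ± 2.80 and Chrd at 0.125 ± 0.0733. Ranges of neighbours in that order overlapped except for Rgma and Chrd. In WT the order after Twsg1 was Grem1 at 8.65 ± 14.5, Chrdl1 at 4.998 ± 8.51, Rgma at 2.83 ± 2.45, Rgmb at 2.80 ± 0.859, Bambi at 2.21 ± 0.606, Fst at 1.73 ± 1.33, Bmper at 0.847 ± 0.709, Chrd at 0.206 ± 0.0474 and Nog at 0.106 ± 0.0996. There the neighbours whose ranges did not overlap were Twsg1 and Grem1. Nog thus stood at rank 6 in G328V and rank 10 in WT.

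Spread between cultures was wide for these genes beside the rest. The median range of log2 CPM over the 6 libraries was 5.48 for the 10 genes and 1.81 for all genes tested, and 19.0% of all genes had a range wider than 5.48. The median standard deviation within groups was 1.68 on the log2 scale for the 10 genes and 0.67 for all genes. Without WT replicate 1, which stood apart, Nog, Chrdl1, Bambi and Bmper had every G328V library above the 2 WT libraries left, and Chrd had every one below. Over all genes tested, 11.9% and 11.8% then did not overlap in those directions.

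Promoters are shown for Grem1, Bmper and Chrd, the members with a single start in the RefSeq table (GRCm38.p6) whose 250 bases before it lie wholly outside the annotated gene. The table also has Rgmb, with 3 starts, and Twsg1, whose stretch overlaps the gene. The capitals mark GGCGCC, the GC-rich sequence that SMAD1 and SMAD5 bind in BMP-responsive genes such as Id1, which reads the same on both strands. It occurred 1 time before Grem1 (chr2:113758649-113758898, minus strand), 1 time before Chrd (chr16:20732877-20733126, plus strand) and 0 times before Bmper (chr9:23222826-23223075, plus strand). Of 13119 promoters of genes tested, 16.5% held it in the same 250 bases. The match begins 78 bases before the start of Grem1 and 203 bases before that of Chrd. It also occurred 1 time before 1 of the 3 Rgmb starts, beginning 21 bases before it, and 0 times before the others and before Twsg1. A match of letters is a description, not a binding site.
Grem1: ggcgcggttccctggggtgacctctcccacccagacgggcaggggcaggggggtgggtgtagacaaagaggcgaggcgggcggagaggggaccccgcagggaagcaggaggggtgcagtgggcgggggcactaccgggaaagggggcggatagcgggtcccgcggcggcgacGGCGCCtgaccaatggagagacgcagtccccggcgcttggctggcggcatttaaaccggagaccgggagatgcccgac
Chrd: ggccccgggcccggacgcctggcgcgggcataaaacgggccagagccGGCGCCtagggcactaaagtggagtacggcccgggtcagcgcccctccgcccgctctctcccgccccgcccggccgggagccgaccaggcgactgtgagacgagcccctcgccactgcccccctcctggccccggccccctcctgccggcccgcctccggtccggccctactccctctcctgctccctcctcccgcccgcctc
Bmper: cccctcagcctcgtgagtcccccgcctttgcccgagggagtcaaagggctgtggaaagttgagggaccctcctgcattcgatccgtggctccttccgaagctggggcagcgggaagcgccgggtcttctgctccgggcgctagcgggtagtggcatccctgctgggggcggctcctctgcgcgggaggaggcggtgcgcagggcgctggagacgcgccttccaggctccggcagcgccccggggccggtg
The promoters shown are rich in G and C, at 72.0% for Grem1, 78.0% for Chrd and 71.6% for Bmper, beside a median of 59.6% over the 13119 promoters.

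Other genes of the pathway were read from the same fit, in lists chosen with earlier results of these data known. Over 42 tested genes beside the 10 members edgeR called 0, and DESeq2 called 5, all higher in G328V: Sost, Acvr1, Smad6, Smad9 and Msx2. Over all genes DESeq2 called 1.05% of 16521, in either direction. Of 10 tested genes for other secreted antagonists and modulators, 8 had positive differences and 2 negative, with a median of 0.91, and 2 had an unadjusted p under 0.05. Sost, which encodes sclerostin, a relative of gremlin known mainly as a Wnt inhibitor of bone, had 180, 46 and 46 counts in G328V and 0 in each WT library. Its mean level in G328V was 28.7 times the level of 3 counts per WT library, and with that value for Sost the list median was also 0.91. Crim1, a membrane protein with chordin-like repeats, was at 118, 83.4 and 280 CPM in the G328V libraries, against 84.4, 54.8 and 60.8 CPM in the WT libraries. Its log2 difference was 1.27 ± 0.50 (SE) (unadjusted p = 0.0416, edgeR adjusted p = 0.997), and WT replicate 1 lay just above G328V replicate 2. Vwc2, which encodes the BMP antagonist brorin, was at most 0.116 CPM in the G328V libraries, against 2.20, 0.398 and 0.00574 CPM in the WT libraries (log2 difference -4.41, standard error 2.58).

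Proteases that cleave chordin and their helpers had 0 genes with an unadjusted p under 0.05 among 4 tested, Neo1 included, with 2 positive and 2 negative differences. Bmp1, which encodes the tolloid protease of that name, was at 138, 512 and 166 CPM in the G328V libraries, against 78.4, 395 and 692 CPM in the WT libraries, so the groups overlapped. Pcolce, an enhancer of procollagen cleavage by that protease, was at 121, 87.2 and 24.7 CPM in the G328V libraries, against 29.9, 172 and 295 CPM in the WT libraries. Tll2, a further tolloid gene, was at 1.28 CPM or less in every library.

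Of 9 tested ligand genes, 2 had positive and 7 negative differences, with a median of -0.38, and 1, Inhba, had an unadjusted p under 0.05. Gdf6 was lower in every G328V library, at 0.0175, 0.108 and 0 CPM, against 0.398, 2.39 and 0.149 CPM in the WT libraries. Its log2 difference was -4.55 ± 2.13 (SE) (unadjusted p = 0.0748). Bmp6 was at 0.385, 0.166 and 0.283 CPM in the G328V libraries, against 0.788, 0.369 and 3.24 CPM in the WT libraries (log2 difference -2.40, standard error 1.21), where G328V replicate 1 lay just above WT replicate 3. Among 8 tested receptor genes 5 were positive and 3 negative, with a median of 0.19. Acvr1 itself had the smallest p there, where the log2 difference was 2.29 ± 0.55 (SE) (unadjusted p = 0.00534). Acvr2b, a type II receptor gene, was at 7.29, 9.05 and 5.60 CPM in the G328V libraries, against 2.74, 1.95 and 4.86 CPM in the WT libraries, with no overlap. Acvrl1, a type I receptor gene of endothelium, was at 2.98, 59.0 and 8.53 CPM in the G328V libraries, against 0.146, 0.0455 and 11.6 CPM in the WT libraries.

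The SMAD1/5 target list, which leaves out Nog and Bambi, had 10 positive differences among 11 tested genes, with a median of 2.70. An unadjusted p under 0.05 was found for 7 of them, all higher in G328V, where 1.88% of all genes were. In 7 genes every G328V library lay above every WT library, as in 5.25% of all genes tested. Smad9 was at 20.5, 22.1 and 30.1 CPM in the G328V libraries, against at most 0.569 CPM in the WT libraries. Smad6, an inhibitory SMAD, was at 37.5, 65.8 and 57.7 CPM in the G328V libraries, against 0.821, 5.47 and 6.87 CPM in the WT libraries, and Msx2, a homeobox gene, at 26.0, 1.79 and 34.6 CPM and at 1.70, 0.301 and 0.632 CPM. Within its group, G328V replicate 1 was the lowest for Bambi and for Id1, Id2, Id3, Smad6, Smad7, Smad9, Msx1 and Hey1. Nog and Atoh8 were lowest in G328V replicate 3, and Msx2 and Id4 in G328V replicate 2.

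**Figure D5:**
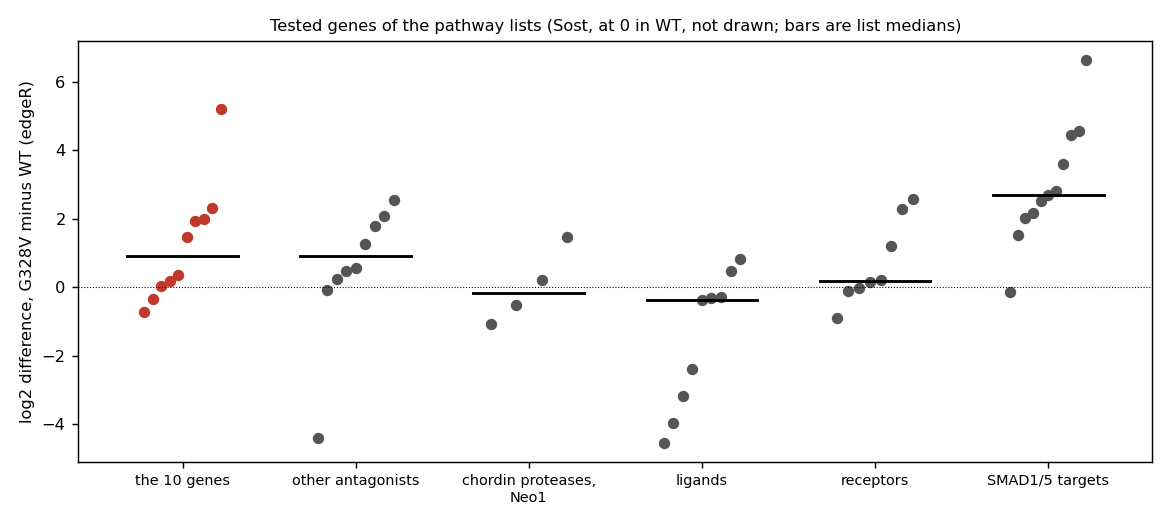
Each point is the edgeR log2 difference, G328V minus WT, of 1 tested gene, grouped by list, with black bars for list medians and Sost left undrawn because it had 0 counts in WT. The medians are 0.91 for the 10 genes and for the other antagonists, -0.16 for the chordin proteases with Neo1, -0.38 for ligands, 0.19 for receptors and 2.70 for SMAD1/5 targets.

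The deposited tables gave the members alike. Counts per Cufflinks fragment were 1.82 to 2.01 for the 9 members other than Chrd, in each library with at least 100 counts, and 1.95 to 1.99 for Chrd, beside a median of 1.95 to 1.96 over 8924 well-counted genes. Exons of Rgma and Fst overlap antisense genes by 258 and 115 bases, and A730056A06Rik, the one beside Rgma, was at most 0.488 CPM in any library.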

How the data were processed

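Raw HTSeq counts, deposited without normalization, cover 17551 gene symbols. Estimated counts from Cufflinks, also deposited by the authors, cover 23107 and were rounded for an alternative test. The submitters' processing notes name mm10, FastQC 0.11.3, TopHat2 2.0.13 and Bowtie2 2.2.1; no source used here gives the counting settings or the annotation. Per the labels, ribosomal RNA was depleted and a stranded kit was used. At about 2 counts per fragment, counts are not independent molecules. A floor of 3 counts is therefore a mark on the scale, not an upper limit, and leaves out spread between cultures.

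G328V was tested against WT, grouped by the genotype label, with edgeR 4.0.16 in R 4.3.3 (quasi-likelihood F-test, legacy robust fit, TMM, filterByExpr with a minimum count of 10, no covariate), with Benjamini-Hochberg adjustment over 14643 genes. CPM use TMM-scaled library sizes, and distances were taken on log2 CPM (prior count 2). DESeq2 1.42.0 and limma 3.58.1 (voom) were among 16 alternatives. The fits were tested on simulated data drawn with edgeR's dispersions for these libraries, with a cap on large ones. With no gene changed, DESeq2 made calls there and edgeR made none. That does not say whether any call in the real data is false. Exon lengths and coordinates come from GENCODE M21 (GRCm38), the assembly behind mm10, and may differ from the authors' annotation. All 10 members were named, with up to 3 genes of smallest p from each further list and the 5 genes nearest in profile to the members of smallest p in each direction. Members and lists were chosen with earlier results of these data known.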

Additional observations from a re-analysis of the deposited data

How the results depend on the processing

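DESeq2 called 173 genes, 1 of the 10 members and 5 other pathway genes, where the other 15 alternatives called 0 of each. The median log2 difference of the members, 0.91 with all libraries, was 2.12 with the replicate number as a block (replicate block), 1.81 with limma-voom, and 0.34 to 1.15 with 1 library left out. Replicate numbers 1 and 3 occur in both groups; deviations correlated by 0.18 and 0.23 within these pairs and by -0.32 to 0.20 in pairs with unlike numbers, the labels do not say that a number marks a shared culture, and the block leaves 1 residual degree of freedom and called 0 genes. The block moved Nog, at 5.20, to 3.16, Grem1, at 1.93, to 8.08, Chrdl1, at 0.35, to 2.27, Chrd, at -0.72, to -1.15 and Rgma, at -0.33, to -0.12, and limma-voom gave 3.90 for Grem1 and 3.89 for Chrdl1. Nog, Chrd, Bambi, Bmper and Fst kept their sign under all 16 alternatives. The sign turned for Twsg1 and Rgmb with the replicate block (-0.19 and -0.17) and for Rgma and Rgmb with limma-voom (0.070 and -0.030). With 1 library left out, differences ranged from -0.25 to 6.23 for Chrdl1, -1.29 to 6.88 for Grem1, -0.14 to 0.27 for Twsg1, -2.15 to 0.21 for Rgma and -0.45 to 0.44 for Rgmb, so each changed sign. The cause of these changes was not tested. Total-count scaling moved the median of all genes to 0.12. Some differences rest on libraries with few counts, such as WT replicate 70A for Nog (0), WT replicate 1 for Grem1 (3) and WT replicate 3 for Chrdl1 (4). WT replicates 3 and 70A had larger totals than any other library, at 191115532 and 185786938 counts, and WT replicate 1 had 120457925. The part of depth in these low counts was not tested.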
